A study of Mus musculus with 15 samples.

Results

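Regions of changed 5-hydroxymethylcytosine (5hmC) that lie close to one another were described in the nucleus accumbens of mice given cocaine or saline. A region was taken as clustered when the gap to the next or previous region of the same list, from edge to edge, was 5000 bp or less, and such regions were chained into clusters. Of the 11748 regions in the deposited 5hmC table, 11698 lie on chromosomes 1 to 19, and 1204 of these (10.3%) were clustered. They form 583 clusters, and the other 10494 regions stand alone. The rule used position only. All the regions had been listed by the authors for a difference between cocaine and saline in these same libraries, so differences within a region are given as descriptions, with no test.

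5hmC is made from 5-methylcytosine by the Tet enzymes, which oxidise the methyl group. The mark is abundant in the DNA of neurons, where it is found in gene bodies and at enhancers, and it can be a step towards removal of methylation. Acetylation of histone H3 at lysine 27 (H3K27ac) marks active enhancers and promoters. The nucleus accumbens lies in the ventral striatum and takes part in reward.

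The series holds 15 libraries from C57BL/6 mice. Capture of 5hmC-bearing DNA was followed by sequencing in 3 libraries after cocaine and 3 after saline. The same numbers were profiled for H3K27ac by chromatin immunoprecipitation, with 1 input per treatment. The remaining library, named as cerebellum in one label and as nucleus accumbens in another, entered no comparison. Cocaine was injected intraperitoneally on 7 days at 20 mg/kg. The same treatment text stands on the saline samples, so their group rests on the source label. The labels give neither the time from the last injection nor whether the libraries of a group come from separate animals, so p-values below reflect library-to-library spread that may be technical. No annotation of the build of the files (mm9) was used here, and the clusters are therefore named by position and not by gene.

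The 5hmC values are normalised read counts per region and rest on few reads. Where 3 values of a group are given below, for either mark, they are the normalised counts of libraries 1, 2 and 3 in that order, and sums and means are in the same unit. The median clustered region held 6 to 8 reads in each cocaine library and 6 to 7 in each saline library, against 5 to 7 and 5 to 6 in the regions outside clusters. Clustered regions took 11.5% to 11.6% of the listed reads of each cocaine library and 11.2% to 11.3% of those of each saline library.

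Most clusters were pairs: 549 held 2 regions, 30 held 3 and 4 held 4. The span from the first to the last base had a median of 2860 bp and ran from 400 to 10660 bp, and 70 clusters spanned less than 1000 bp. The regions themselves covered a median of 15.7% of that span. Between the 621 pairs of neighbours within clusters the median gap was 2320 bp, whereas over all 11679 neighbouring pairs of the same chromosomes it was 79560 bp.

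Values did not break at the limit of 5000 bp. Just inside it, 111 regions had their nearest neighbour at 4500 to 5000 bp, and 56.8% of them were higher after cocaine. Just outside it, 100 regions had theirs at a gap of up to 5500 bp, and 59% were higher. Neighbouring pairs shared a direction in 30 of 59 cases (50.8%) inside and in 31 of 54 (57.4%) outside.

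The first question was whether neighbours moved in the same direction. Direction was read from the mean of the 3 cocaine values and the mean of the 3 saline values, and it differed from the event given in the authors' deposited table for 0 of the 1204 regions. Of the clustered regions 711 (59.1%) had a higher mean with cocaine and 493 a lower one. The whole table had 58.5% higher and 41.5% lower, so the clusters held nearly the same mix of directions. Of the 583 clusters, 208 held only higher regions, 107 only lower regions and 268 (46.0%) both. Clusters of 2 regions shared a direction in 306 of 549 cases (55.7%), clusters of 3 in 9 of 30, all of them higher, and clusters of 4 in 0 of 4.

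Counted by neighbouring pair, 342 of 621 within clusters had the same direction, or 55.1% (95% exact binomial interval 51.1% to 59.0%). Beyond 5000 bp the share was 51.2% of 11058 pairs (50.2% to 52.1%). These intervals cover counting error only, pairs that share a region are not independent, and no test of the difference was made. Agreement did not rise steadily as regions came closer. It was 54.9% of 348 pairs at gaps of 2000 to 5000 bp, 53.6% of 138 at 1000 to 2000 bp and 56.7% of 60 at 500 to 1000 bp. At 200 to 500 bp it was 65.7% of 35 pairs, and at 200 bp or less 50% of 40. The interval of this last share, 33.8% to 66.2%, holds the shares of all the other distances shown. The 40 pairs at 200 bp or less include 5 with a gap of 0 bp or less, all of opposite direction. How adjacent windows were joined is not stated for the 5hmC list, and its part in this share was not tested.

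**Figure D1:**
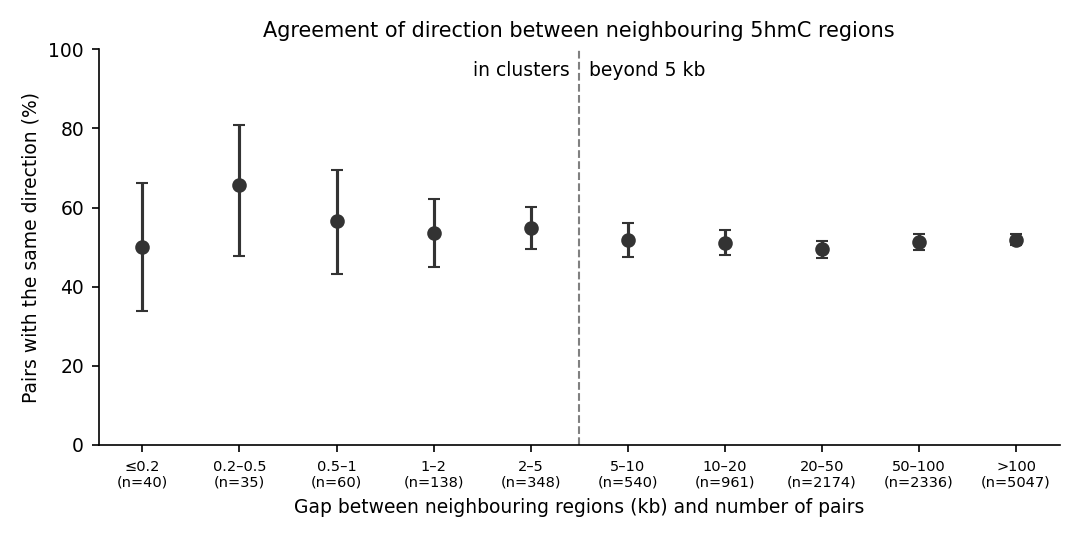
Share of neighbouring 5hmC regions with the same direction of change (vertical axis, percent) by the gap between them (horizontal axis, kb, with the number of pairs); points are shares, bars are 95% exact binomial intervals, and the dashed line is the limit for clusters. Shares within clusters run from 50% to 65.7% and those beyond 5 kb from 49.4% to 51.9%.

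Levels of neighbours were at most weakly related. Across pairs within clusters, Spearman's correlation between the level of a region and that of the next was 0.085 over 621 pairs, against 0.066 over the 11058 pairs beyond 5000 bp. By gap it was 0.22 over 40 pairs at 200 bp or less and 0.26 over 35 pairs at 200 to 500 bp. At 500 to 1000, 1000 to 2000 and 2000 to 5000 bp it was 0.037, -0.006 and 0.087. All points share the same 6 libraries, and at these numbers of reads and pairs such weak values are no finding.

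Normalised counts were next summed over the regions of each kind of cluster in each library. Clusters with only higher regions totalled 4895, 5020 and 4865 with cocaine and 1638, 1627 and 1668 with saline. Clusters with only lower regions totalled 641, 618 and 635 with cocaine and 2262, 2198 and 2190.0 with saline. Both differences follow from how the regions were listed. The 268 clusters of both directions totalled 4118, 4316 and 4183 with cocaine, a mean of 4206 ± 101.1 (SD, n = 3), and 4136, 4111 and 4071 with saline, a mean of 4106 ± 32.9. Here cocaine and saline libraries overlapped.

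Cluster by cluster, the log2 ratio of the summed counts, with 1 added to each group mean, had a median of 1.56 in the clusters of higher regions, -1.77 in those of lower regions and 0.03 in the mixed ones. The quartiles of the mixed clusters were -0.17 and 0.22, and 254 of 268 (94.8%) lay within 1.5-fold. Their cocaine and saline sums did not overlap in 41 of 268 (15.3%). Single regions of the table did not overlap in 99.9%, for which they had been selected. Sums over regions selected in opposite directions must partly cancel, so nothing is read from this difference.

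**Figure D2:**
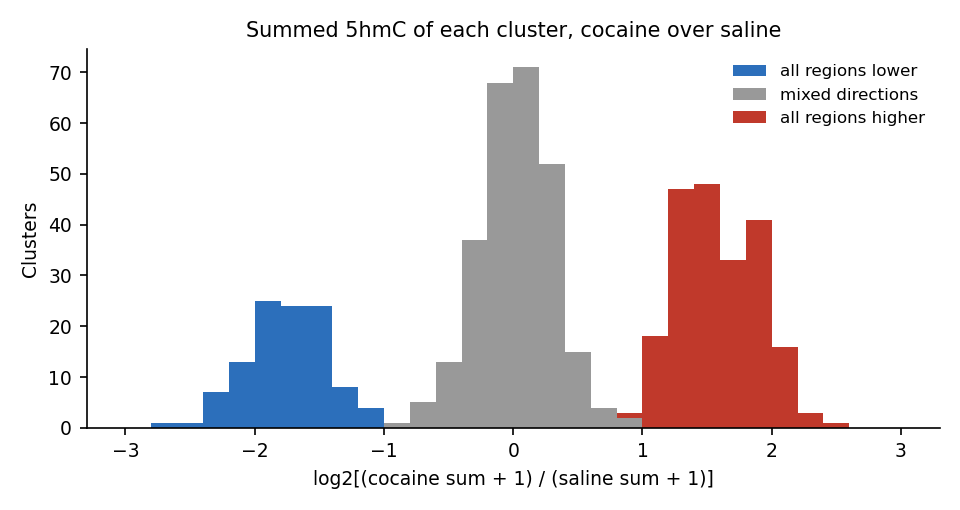
Number of clusters (vertical axis) by the log2 ratio of summed normalised 5hmC counts, cocaine over saline with 1 added to each (horizontal axis), coloured by whether all regions of the cluster were lower, all were higher or the directions were mixed. The mixed clusters have their median at 0.03 and the others at -1.77 and 1.56.

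Each of the 4 clusters of 4 regions held both directions. On chromosome 2 from 179219001 to 179225540, the first 3 regions were higher and the last was lower after cocaine. The region from 179223941 to 179224200 held 27.9, 33.3 and 28.8 with cocaine and 14.3, 16.5 and 20.7 with saline. The last, from 179225341 to 179225540 and 1140 bp further on, held 0.96, 1.23 and 0.90 with cocaine and 6.28, 7.21 and 4.93 with saline. The groups did not overlap in either region, and the last held about 1 read in each cocaine library.

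A cluster on chromosome 15 from 25689481 to 25697820 was lower in 3 of 4 regions. The region from 25692541 to 25692800 held 5.76, 8.64 and 8.99 with cocaine and 18.8, 22.6 and 19.7 with saline. The fourth, from 25697621 to 25697820, held 13.4, 13.6 and 8.99 with cocaine and 2.69, 6.18 and 4.93 with saline. This higher region stands apart from the lower ones by a gap of 4820 bp. Each of the 3 lower regions overlapped an H3K27ac region and the higher one did not.

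The other cluster of 4 on chromosome 15, from 89131041 to 89133160, spanned 2120 bp. The region from 89132641 to 89132860 held 24.02, 22.2 and 26.96 with cocaine and 12.6, 10.3 and 16.8 with saline. Only 100 bp further, from 89132961 to 89133160, the fourth held 7.69, 3.70 and 4.49 with cocaine and 17.03, 18.5 and 9.87 with saline. The groups were apart in both regions and in opposite order.

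On chromosome 5 from 121131041 to 121141700, the cluster with the widest span, directions alternated from higher to lower along all 4 regions. The first region held 27.9, 13.6 and 36.9 with cocaine and 9.86, 15.4 and 9.87 with saline. Saline library 2 exceeded cocaine library 2 there, so the groups overlapped; over all clustered regions they did not overlap in 1202 of 1204. The region from 121139421 to 121139620 held 5.76, 4.94 and 4.49 with cocaine and 0.90, 1.03 and 0 with saline, and there they did not overlap.

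**Figure D3:**
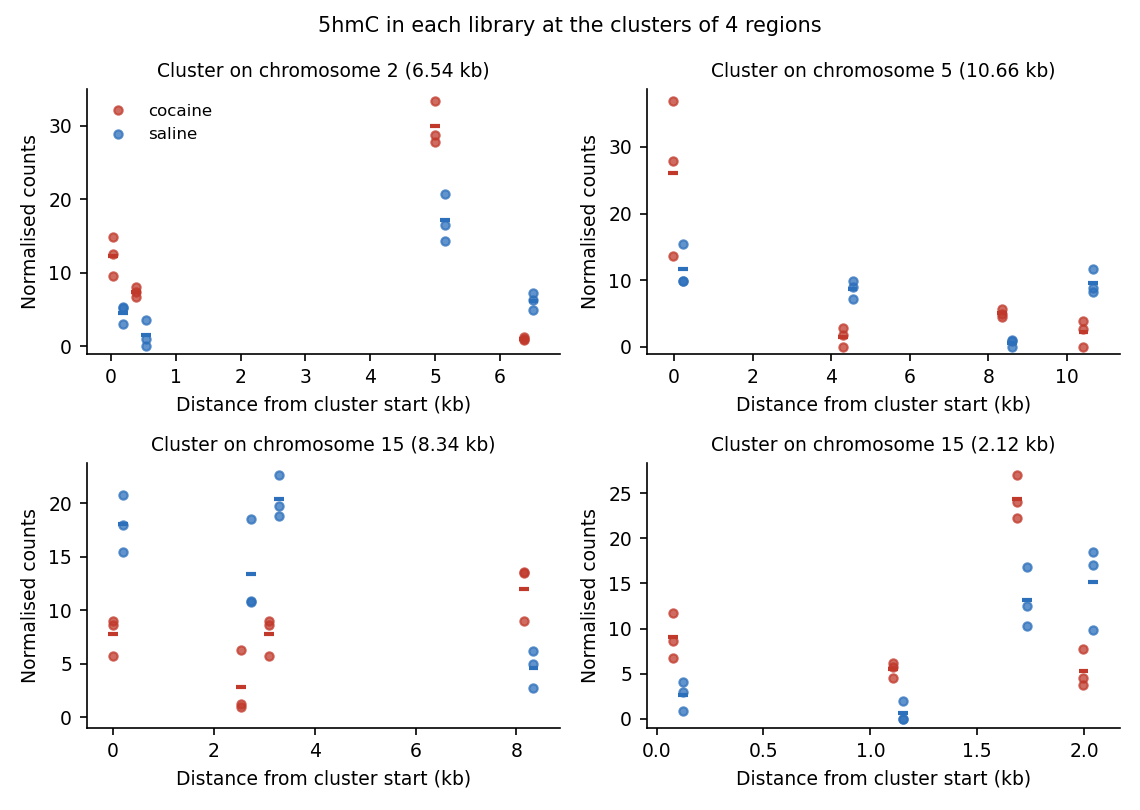
Normalised 5hmC counts (vertical axis) of each library at the regions of the clusters of 4, against distance from the cluster's first base (horizontal axis, kb); points are libraries, short lines are group means, cocaine in red and saline in blue, drawn slightly to the right. In every panel the order of the group means changes at least once along the cluster.

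Of the 21 clusters of 3 regions with both directions, the region of the other direction stood in the middle in 9 and at an end in 12. On chromosome 7 from 75460001 to 75463100 it was the middle one, with 0.71 ± 0.637 with cocaine and 5.81 ± 0.957 with saline (SD, n = 3), between outer regions of 9.63 ± 2.60 with cocaine and 2.64 ± 2.21 with saline and of 13.9 ± 1.24 with cocaine and 4.83 ± 1.93 with saline. On chromosome 6 from 144741521 to 144743580 the first region was lower, at 3.92 ± 1.95 with cocaine and 13.2 ± 1.75 with saline, and the others were higher. Chromosome 9 from 68065101 to 68067480 showed the same order, with 3.35 ± 2.24 with cocaine and 10.9 ± 1.87 with saline in its first region. On chromosome 8 from 97065501 to 97068600 the lower region came last, at 2.81 ± 1.66 with cocaine and 9.45 ± 2.11 with saline.

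Among clusters of a single direction, all those of 3 regions were higher after cocaine. On chromosome 4 from 139882281 to 139890200 the last region, from 139889861, held 30.7, 34.6 and 34.1 with cocaine and 15.2, 16.5 and 17.8 with saline. The cluster on chromosome 3 from 101246761 to 101248920 ended with a region from 101248641 that held 24.02, 27.2 and 27.9 with cocaine and 15.2, 13.4 and 10.9 with saline. In both regions every cocaine library lay above every saline library, as in nearly all listed regions of that direction. Their log2 fold changes, 1.01 and 1 in the authors' deposited table, were smaller than the median size of 1.92 over the clustered regions.

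On chromosome 8 from 125540041 to 125542260 the 3 higher regions were sparser, and the middle one held 14.4, 14.8 and 12.6 with cocaine and 4.48, 5.15 and 5.92 with saline. The cluster on chromosome 15 from 100762201 to 100767720 summed to 42.9 ± 2.94 with cocaine and 16.9 ± 4.19 with saline (SD, n = 3). Chromosome 2 held 2 more such clusters. The one from 34497701 to 34507980 summed to 34.9 ± 5.04 with cocaine and 10.9 ± 0.684 with saline, and the one from 3104801 to 3114040 to 29.6 ± 5.43 with cocaine and 8.73 ± 1.71 with saline. All of these sums differed by more than the spread between libraries, for which each region had been listed.

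Clusters with only lower regions held 2 regions each. On chromosome 19 from 46720761 to 46721240 they lay 60 bp apart. The first held 8.65, 11.1 and 9.89 with cocaine and 20.6, 20.6 and 24.7 with saline, and the second 6.73, 6.17 and 9.89 with cocaine and 21.5, 17.5 and 14.8 with saline. Both were lower in every cocaine library than in any saline library, and nearly all listed regions have groups apart in this way. By summed difference this cluster came after the one on chromosome 12 from 72665721 to 72669000, with 13.5 ± 4.30 with cocaine and 36.1 ± 3.07 with saline (SD, n = 3). On chromosome 5 from 129264341 to 129266380 the sums were 11.04 ± 4.21 with cocaine and 33.4 ± 4.92 with saline, and on chromosome 1 from 192478861 to 192482540 they were 12.96 ± 2.12 with cocaine and 35.1 ± 1.95 with saline.

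The closest neighbours of all had opposite directions. A gap of 0 bp or less occurred in 5 pairs, and all 5 joined a higher and a lower region. Of the 342 pairs of the same direction 0 touched, and their smallest gap was 20 bp. How the authors joined adjacent windows is not stated for the 5hmC table, and its part in this count was not tested.

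A pair on chromosome 13 begins with the region from 112566021 to 112566220, which held 23.1, 20.99 and 20.7 with cocaine and 13.4, 11.3 and 6.91 with saline. The region that begins at the next base, 112566221, held 7.69, 6.17 and 8.09 with cocaine and 15.2, 18.5 and 20.7 with saline. Summed over both, there were 28.9 ± 1.80 with cocaine and 28.7 ± 1.11 with saline (SD, n = 3). The order of the groups turned over between adjoining regions, and the sums overlapped.

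Chromosome 11 showed the same from 57563461 to 57563860. The first region held 19.2, 18.5 and 22.5 with cocaine and 9.86, 10.3 and 8.88 with saline, and the second 2.88, 9.88 and 3.59 with cocaine and 12.6, 19.6 and 13.8 with saline. The sums were 25.5 ± 3.18 with cocaine and 24.99 ± 4.21 with saline (SD, n = 3) and overlapped as well. In the pair on chromosome 8 from 13489481 to 13489900 the sums were 10.01 ± 2.15 with cocaine and 8.74 ± 2.71 with saline, and in the pair on chromosome 17 from 48681481 to 48681960 they were 28.8 ± 4.14 with cocaine and 22.9 ± 2.36 with saline. The pair on chromosome 2 from 166676081 to 166676520 shares 20 bp, whose reads can enter both regions, and summed to 13.5 ± 3.37 with cocaine and 10.9 ± 3.53 with saline.

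In all 5 sums the groups overlapped. Up to a gap of 200 bp there were 20 pairs of opposite direction, and their sums overlapped in 16, with log2 ratios from -0.46 to 0.72 and a median of 0.14. Each pair joins regions selected in opposite directions, so its sums must partly cancel, and nothing is read from the overlap.

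**Figure D4:**
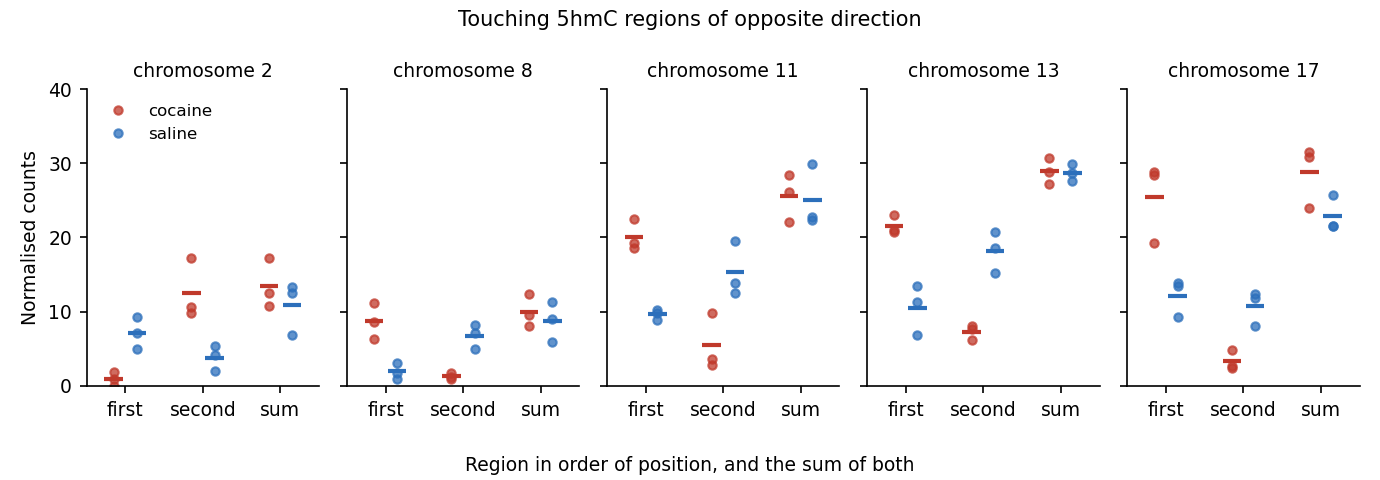
Normalised 5hmC counts (vertical axis) of each library in the first region, the second region and their sum (horizontal axis) for the 5 pairs that touch or overlap; points are libraries and lines group means, cocaine in red and saline in blue. Cocaine and saline change places between the regions, and their sums overlap in all 5 pairs. Sums over regions selected in opposite directions must partly cancel.

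Clustered regions were compared with those outside clusters. They were slightly better covered: the larger of the 2 group means had a median of 9.67 normalised counts, against 8.95 outside, and it was 10 or more in 47.4% against 39.98%. Their changes were slightly smaller, with a median absolute log2 fold change of 1.92 against 2.05 in the authors' deposited table. No test was made of these differences, since all regions were selected in the same libraries. Higher clustered regions had medians of 10.1 with cocaine and 2.67 with saline, and lower ones 2.29 and 9.28. Outside clusters the medians were 8.93 and 2.24, and 2.13 and 8.97.

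Background, computed from the deposited ratios, had a median of 2.83 normalised counts in clustered regions and 2.84 outside, and was 0 in 15.1% and 14.9% of them. It was highest on chromosome 1 from 192478861 to 192479220, at 11.6, where the groups held 5.39 ± 1.18 with cocaine and 17.4 ± 0.946 with saline (SD, n = 3). Next came a region on chromosome 2 from 171483441, with 10.1, and one on chromosome 7 from 132011721, with 9.98. Each of these lay below the larger group mean of its region.

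By the authors' deposited adjusted p, 1 of the 1204 clustered regions lay below 0.05, beside 0.0340% of the whole table. The authors' adjusted p of the clustered regions had a median of 0.140 and reached 0.149, so the listing was lenient. It lies on chromosome 17 from 31975601 to 31976040, and its adjusted p was 0.0163 in the authors' deposited table. It held 28.8, 33.3 and 26.1 with cocaine and 8.07, 7.21 and 11.8 with saline. Its neighbour, 1200 bp before it from 31974201 to 31974400, held 11.5, 18.5 and 19.8 with cocaine and 8.96, 7.21 and 3.95 with saline. That neighbour was also higher in every cocaine library, as were nearly all listed regions of that direction. Its adjusted p was 0.143 in the authors' deposited table.

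Clusters occurred on every one of the 19 chromosomes. The clustered share of regions was lowest on chromosome 12, with 32 of 491 (6.52%), and highest on chromosome 15, with 81 of 535 (15.1%). Listed regions lay at 4.23 per Mb on chromosome 12 and 5.36 per Mb on chromosome 15. Over the 19 chromosomes the rank correlation of this density with the clustered share was 0.48, and its part in the shares was not tested. The nearest other cluster lay at a median of 728080 bp, and 72 of 583 clusters had another within 100000 bp. The closest neighbours, 15900 bp apart on chromosome 15, span 85808861 to 85810620 and 85826521 to 85831820, and each holds 1 higher and 1 lower region.

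H3K27ac was examined as a mark that the rule had not used. Of the clustered regions 143 of 1204 overlapped an H3K27ac region by at least 1 bp, or 11.9% (95% exact binomial interval 10.1% to 13.8%). Outside clusters 907 of 10494 did, or 8.64% (8.11% to 9.197%). Neighbours can fall in 1 H3K27ac region, which the intervals leave out, and no test was made. The share was 11.7% for higher and 12.2% for lower clustered regions. At least 1 region overlapped in 109 of the 583 clusters: in 44 of 208 clusters of higher regions, 23 of 107 of lower regions and 42 of 268 mixed ones.

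The clustered regions met 147 H3K27ac regions. Limma with Benjamini-Hochberg adjustment over all 49712 called 11 of them at an adjusted p of 0.05, 3 higher and 8 lower after cocaine, or 7.48%. Over all H3K27ac regions the share was 13.0%, 3.42% higher and 9.62% lower. The H3K27ac regions at 5hmC regions outside clusters also had a lower share than all, with 95 of 978 called (9.71%). After cyclic loess normalisation limma called 20 of the 147 (13.6%), 11 higher and 9 lower, beside 14.98% of all H3K27ac regions and 16.1% of those at 5hmC outside clusters. Both the share called at clusters and its split by direction thus moved with the scaling. The split of all H3K27ac regions after cyclic loess is not given here, so the change of split is not read as particular to clusters. The median log2 difference was -0.016 at the clusters and -0.018 in the table. The H3K27ac list was made by the authors' caller in the same libraries, so these calls may not be independent of its selection. Little changed regions were listed too: on chromosome 5, the one from 121130001 to 121131400 had a limma log2 difference of 0.0099 ± 0.0399 (SE, adjusted p = 0.817).

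Directions in both marks matched about as often as not. Among 157 overlapping pairs of a clustered 5hmC region and an H3K27ac region, 80 (51.0%) had the same sign, against 482 of 978 (49.3%) outside clusters. Of the 11 pairs with a called H3K27ac region 6 had the same sign, against 40 of 95 (42.1%) outside clusters. H3K27ac regions at clusters took 0.294%, 0.296% and 0.294% of the normalised counts of the H3K27ac table with cocaine and 0.292%, 0.297% and 0.290% with saline. The groups overlapped, and the difference of 0.0022 percentage points had p = 0.5 (exact permutation test, two-sided), where 0.1 is the smallest p that 3 against 3 libraries allow. At clusters of higher regions, lower regions and both, the p of the same exact permutation test was 0.4, 0.7 and 0.3. Adjusted over these 4 comparisons, the exact permutation p-values ran from 0.667 to 0.7.

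Called H3K27ac decreases at clusters were small in fold. Where a region below was named for its small limma p, separation of its groups follows in part from that choice. On chromosome 7 the cluster from 150622001 to 150623220 held 2 lower 5hmC regions, and the H3K27ac region from 150623001 to 150624400 held 272, 287 and 290.4 with cocaine and 349.6, 332 and 379.8 with saline. The groups did not overlap, and limma gave a log2 difference of -0.32 ± 0.0535 (SE, adjusted p = 3.02e-07). The 5hmC region inside it, from 150623021, held 2.88, 1.23 and 2.70 with cocaine and 9.86, 5.15 and 18.8 with saline. Here both marks were lower.

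On chromosome 16 the marks differed in direction. The cluster from 35540021 to 35542800 was higher in 5hmC, with sums of 19.3 ± 2.81 with cocaine and 6.38 ± 1.51 with saline (SD, n = 3). The H3K27ac region from 35540201 to 35542000 held 770.2, 793 and 853 with cocaine and 898, 894 and 969 with saline. It was lower in every cocaine library, with a limma log2 difference of -0.19 ± 0.0405 (SE, adjusted p = 9.01e-05).

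On chromosome 12, between 88019901 and 88022500, H3K27ac was lower by limma with a log2 difference of -0.13 ± 0.0364 (SE, adjusted p = 0.00567) at a cluster from 88021841 to 88024360 with 2 higher 5hmC regions. The call was lost when cocaine library 1 (limma adjusted p = 0.103), cocaine library 2 (0.0802) or saline library 3 (0.058) was left out. On chromosome 2, between 3114001 and 3115000 and at the last region of the cluster from 3104801 described above, the H3K27ac difference was -0.18 ± 0.0573 (limma, SE, adjusted p = 0.0165). That call was lost without cocaine library 2, cocaine library 3, saline library 1 and saline library 2, with limma adjusted p-values of 0.0518, 0.0886, 0.0567 and 0.0774.

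Each of the 3 called increases at clusters met a higher 5hmC region. Outside clusters 15 pairs with a called increase held a higher and 19 a lower 5hmC region, but 3 calls are too few for a comparison. Among all 157 overlapping pairs at clusters, called or not, higher H3K27ac met a higher 5hmC region in 44 and a lower one in 30. Lower H3K27ac also met higher 5hmC regions more often, in 47 against 36. Of all clustered 5hmC regions 59.1% were higher, so no agreement of the marks is read from these counts. On chromosome 11 the H3K27ac region from 57044401 to 57045700 held 312, 341 and 329 with cocaine and 273, 284 and 292 with saline, with a limma log2 difference of 0.21 ± 0.0543 (SE, adjusted p = 0.00301). The groups did not overlap. The 5hmC region within it, from 57044621 to 57044820, held 10.6, 6.17 and 11.7 with cocaine and 1.79, 2.06 and 2.96 with saline, while its neighbour 3740 bp before it was lower. On chromosome 19 from 14592101 to 14593200 the limma log2 difference was 0.19 ± 0.0567 (SE, adjusted p = 0.0094), and on chromosome 9 from 119710101 to 119711600 it was 0.15 ± 0.0457 (limma, SE, adjusted p = 0.0118).

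Each increase was lost on leaving out at least 1 library. The chromosome 11 region then had a limma adjusted p of 0.0652 (cocaine library 2). The chromosome 19 region had limma adjusted p-values of 0.069, 0.0597 and 0.151 (cocaine library 1, cocaine library 3, saline library 1), and the chromosome 9 region 0.071 and 0.0674 (cocaine library 1, cocaine library 3). The decreases on chromosomes 7 and 16 passed in all 6 such fits. With each region's own variance, limma adjusted p-values of the 6 regions plotted were 0.281 to 0.291, and 0.00402% of all H3K27ac regions were called.

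**Figure D5:**
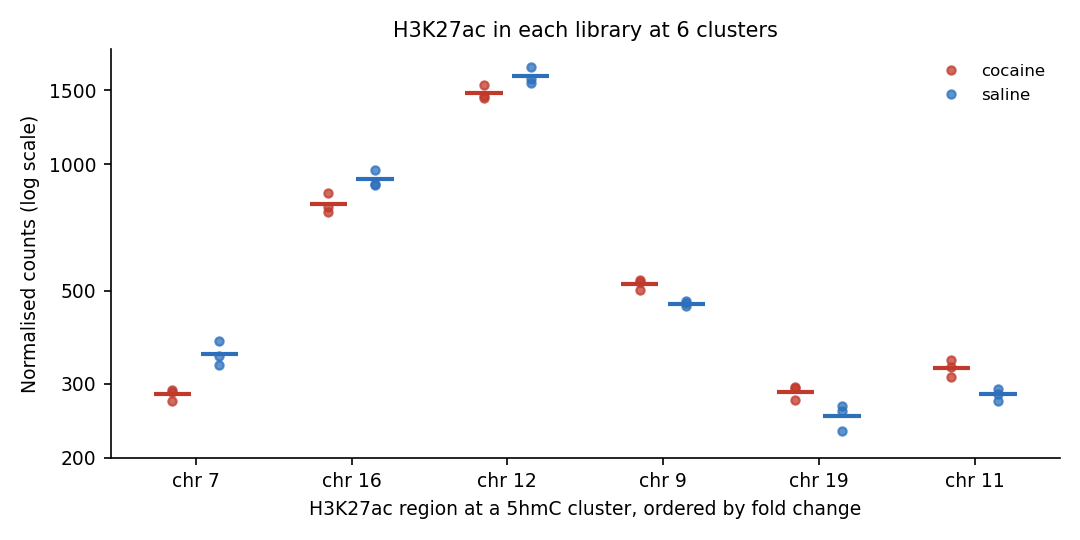
Normalised H3K27ac counts (vertical axis, log scale) of each library at the 6 clusters whose H3K27ac regions had the smallest limma p in each direction, ordered from the largest decrease to the largest increase (horizontal axis); points are libraries and lines group means, cocaine in red and saline in blue. The groups do not overlap in any of the 6, which follows in part from choosing them by p in these same libraries. Log2 differences run from -0.32 to 0.21.

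Few clusters met the authors' lists of enhancers with cocaine-specific or saline-specific 5hmC. Of the clustered regions 10 of 1204 (0.831%, 95% exact binomial interval 0.399% to 1.52%) overlapped the cocaine-specific list, against 169 of 10494 (1.61%, 1.38% to 1.87%) outside clusters. The saline-specific list met 8 (0.664%, 0.287% to 1.31%) against 123 (1.17%, 0.975% to 1.40%). These lower shares did not hold at every gap used to define a cluster. At 10000 bp the cocaine-specific list met 1.71% of clustered regions and 1.49% of the others, and at 1000 bp 1.504% and 1.53%. At 2000 bp it met 1.31% of clustered regions, still a smaller share than of the others. The saline-specific list stayed lower at clusters at 10000 bp, with 0.784% and 1.196%, and at 2000 bp, with 0.749% and 1.138%. At 1000 bp its shares were 1.13% and 1.12%, the former from 3 of 266 clustered regions. Of the 10 regions at the cocaine-specific list 9 were higher, and of the 8 at the saline-specific list 6 were lower. Outside clusters the split was similar, with 148 of 169 higher at the cocaine-specific list and 88 of 123 lower at the saline-specific list. Read the other way, 10 of 10575 cocaine-specific and 7 of 10555 saline-specific intervals lay at a clustered region. The sources used here do not say how the lists were made, and whether they come from the same libraries was not tested.

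Across whole clusters, 10 met the cocaine-specific list and 7 the saline-specific list, and 0 met both, also when the gaps within a cluster were counted. The first region of the chromosome 19 cluster from 14590361 to 14592460, described above for its H3K27ac, met the cocaine-specific list and held 9.61, 9.88 and 13.5 with cocaine and 3.59, 6.18 and 1.97 with saline. Mixed clusters met a list at 1 region: on chromosome 5 from 53597661 to 53602780 the higher region, with 10.2 ± 1.10 with cocaine and 3.21 ± 0.333 with saline (SD, n = 3), met the cocaine-specific list, and on chromosome 8 from 120082341 to 120090440 the lower region, with 0.62 ± 0.538 with cocaine and 5.75 ± 1.23 with saline, met the saline-specific list. On chromosome 8 from 90013381 to 90018980 it was the last region, with 14.7 ± 2.05 with cocaine and 5.57 ± 1.83 with saline, that met the cocaine-specific list.

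Some regions went against the name of their list. The only lower region at the cocaine-specific list, on chromosome 2 from 173175121 to 173175360, held 8.65, 12.3 and 17.97 with cocaine and 32.3, 23.7 and 23.7 with saline. On chromosome 11 a region from 80373841 to 80374080 at the saline-specific list was higher, with 17.3, 19.8 and 25.2 with cocaine and 8.07, 10.3 and 8.88 with saline. The other higher region at that list, on chromosome 8 from 125540041 to 125540240, held 4.80, 7.41 and 6.29 with cocaine and 0.90, 1.03 and 0.99 with saline. In none of these 3 did cocaine and saline libraries overlap, as in 99.9% of all listed 5hmC regions, which had been selected for a difference.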

How the data were processed

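Bowtie 0.12.9 and the build mm9 are named by the submitters' processing notes. Windows of 1000 bp moved by 100 bp, tested at a p cutoff of 0.0001, gave the H3K27ac table, per the file headers. The headers of that table also give diffReps 1.54. The settings behind the 5hmC table are not given here. The deposited values are normalised read counts per region and library, and the deposited signal is their group mean. The deposited ratio divides that mean by a background, computed here as mean over ratio. Log2 fold changes, p-values and adjusted p-values of 5hmC are the authors'. Library numbers of 5hmC are positions within the deposited cell. Each library's values were multiples of a step, taken as 1 read; 100% of clustered values were whole within 0.1 read.

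Clusters, overlaps (at least 1 bp) and sums were computed in Python 3.11.15 with pandas 2.3.3. H3K27ac was fitted on log2(value + 1) by limma 3.58.1 under R 4.3.3, with trended, robust moderation and Benjamini-Hochberg adjustment over all regions; the script was tested on simulated data. Members, lists and tests were chosen with earlier results of these data known. Clusters were named by number of regions, by summed difference within a direction, by smallest gap between opposite regions, by smallest limma p, by overlap with each enhancer list, by a deposited adjusted p below 0.05 or by highest background; those on chromosome 18 are counted and not named. Alternatives were other gaps, depth, background and overlap rules, leaving out each library, and other limma settings.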

Additional observations from a re-analysis of the deposited data

Results flagged for a closer look

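In 11 of the 1204 clustered regions (0.914%) the background was larger than both the cocaine and the saline mean, against 215 of 10494 (2.05%) outside clusters. These regions came up because background enters no comparison between the groups. It was highest on chromosome 14 from 31694441 to 31694640, at 8.69 normalised counts, beside 1.92, 2.47 and 1.80 with cocaine and 8.07, 9.26 and 6.91 with saline. It was lowest on chromosome 11 from 50431181 to 50431380, at 5.67, beside means of 5.04 with cocaine and 0.643 with saline. The deposited table does not name the library behind the ratios.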

How the results depend on the processing

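Few reads per region and 3 libraries per group limit what these values can resolve. The 1204 clustered regions became 266, 534 and 2167 at gaps of 1000, 2000 and 10000 bp, and 297 where a group mean had to reach 10, since fewer or more regions then enter. Clusters of a single direction made up 54.0%, and 49.8% at a gap of 10000 bp; the cause was not tested. Agreeing pairs made up 53.6% to 57.0% over the gap, depth and background alternatives. Leaving out any 5hmC library kept both shares at 54.0% and 55.1%, which is no sign of stability because the listed regions nearly all have groups that do not overlap. Overlap with H3K27ac rose from 11.9% to 20.3% when a distance of 1000 bp counted. The cocaine-specific list met 0.831%, 1.99% within 1000 bp and 1.71% at a gap of 10000 bp, where 2.93% and 1.49% of the regions outside clusters did, and the saline-specific list 0.664% and 1.74% within 1000 bp, where 2.73% outside did. Limma called 11 of 147 H3K27ac regions at clusters, and 2 of 24, 5 of 60 and 21 of 254 at gaps of 1000, 2000 and 10000 bp. The number of H3K27ac regions met thus changed with the gap as well. With 1 library left out limma called 5 to 8 of the 147. It called 5 without cocaine library 1, and 6 without cocaine library 2, without cocaine library 3 and without saline library 1. In these 4 fits 6.20%, 6.15%, 11.5% and 9.88% of all H3K27ac regions were called, against 13.0% with all libraries. Cyclic loess gave 20, of which 9 were among the 11, beside 14.98% of all regions; the cause was not tested. With each region's own variance, an alternative chosen after seeing the data, limma called 0 at clusters. It called 2 of all 49712 regions, so the 0 is not particular to clusters. The difference in H3K27ac share stayed positive, at 0.000711 to 0.00427 percentage points with 1 library left out. No paired analysis was possible because the labels give no replicate numbers shared between the groups. The planned edgeR fit on recovered reads was not run.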

Other observations

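The order of opposite neighbours along the chromosome was uneven at the shortest gaps, a pattern noticed after the values were seen. Of the 20 opposite pairs with a gap of 200 bp or less, the higher region came first, at the smaller coordinate, in 16 and the lower region in 4. At gaps of 200 to 500 bp the counts were 5 and 7, at 500 to 1000 bp 16 and 10, at 1000 to 2000 bp 34 and 30, and at 2000 to 5000 bp 81 and 76. Over all 5677 opposite pairs of the table they were 2838 and 2839. The deposited table gives no strand, and the order was not tested.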
